A study of Mus musculus with 3 samples.

Results

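The vascular endothelial growth factor (VEGF) genes described here are 9 of the 27998 genes in the count tables, taken by their symbols: the 4 ligands Vegfa, Vegfb, Vegfc and Pgf, the 3 receptor tyrosine kinases Flt1, Kdr and Flt4, and the 2 neuropilin co-receptors Nrp1 and Nrp2. Single-nucleus RNA sequencing had been run on whole hearts of mouse embryos at embryonic day 9.5 in 3 genotypes of Ncx1: homozygous mutant (Ncx1-/-), heterozygous (Ncx1+/-) and wild type (Ncx1+/+). Ncx1 is an alias of Slc8a1, the sodium-calcium exchanger of the heart muscle cell membrane, and embryos without it are known to lack a working heartbeat and blood flow. For each genotype 5 hearts were pooled and 1 library was made, so genotype cannot be told apart from pool or library, and no difference between genotypes has a replicate check. The mouse strain, the deleted part of the gene and the sex of the embryos are not given in the labels.

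VEGF ligands are secreted proteins that act on the endothelium, the cell layer that lines blood vessels and, as endocardium, the heart chambers. Vegfa binds both Flt1 and Kdr, with Kdr carrying most of the growth and migration signal and Flt1 acting largely as a trap for ligand. Vegfb and Pgf bind Flt1, whereas Vegfc binds Flt4 and, once processed, Kdr. Neuropilins bind VEGF ligands beside their receptors and also serve as receptors for secreted semaphorins. In the embryonic heart, Vegfa from the muscle wall is known to act on the endocardium and on the formation of the valve cushions, and its transcription is known to be raised by low oxygen.

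The deposited tables held 12525 barcodes and 52985283 UMIs (unique molecular identifiers, the counted molecules) in the Ncx1-/- library, 12563 barcodes and 49022310 UMIs in the Ncx1+/- library, and 13805 barcodes and 59898298 UMIs in the Ncx1+/+ library. Between 87 and 104 barcodes of each library occurred in another library, and 11231, 11267 and 12464 nuclei of Ncx1-/-, Ncx1+/- and Ncx1+/+ hearts were kept. The nuclear RNA Malat1 took 8.43% of UMIs in Ncx1-/- nuclei, 4.95% in Ncx1+/- nuclei and 4.68% in Ncx1+/+ nuclei. Slc8a1 itself stood at 1033 CPM (counts per 1000000 UMIs) in Ncx1-/- nuclei, 6540 CPM in Ncx1+/- nuclei and 11829 CPM in Ncx1+/+ nuclei, the order the genotype labels imply.

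Nuclei were grouped by clusters of similar expression, and clusters were named from marker genes, with the 9 VEGF genes kept out of both steps. Cardiomyocyte-like nuclei (heart muscle) numbered 7798 in Ncx1-/- hearts, 7236 in Ncx1+/- hearts and 7793 in Ncx1+/+ hearts. Endothelial-like nuclei (endocardial and vascular together) numbered 1379 in Ncx1-/- hearts, 1798 in Ncx1+/- hearts and 2021 in Ncx1+/+ hearts. Cushion mesenchyme-like nuclei, the valve precursor cells that arise from endocardium, numbered 230 in Ncx1-/- hearts, 352 in Ncx1+/- hearts and 499 in Ncx1+/+ hearts. Epicardial-like nuclei, from the outer covering of the heart, numbered 235 in Ncx1-/- hearts, 28 in Ncx1+/- hearts and 177 in Ncx1+/+ hearts, and erythroid-like nuclei (blood) numbered 81 in Ncx1-/-, 465 in Ncx1+/- and 494 in Ncx1+/+ hearts. A megakaryocyte-like cluster held only 38 nuclei and was not compared. In every library all 14 cardiomyocyte, 18 endothelial and 12 erythroid markers stood higher in their own class than in the other classes together. Of 13 mesenchyme markers 9 did so in Ncx1-/- hearts and 10 in each of the Ncx1+/- and Ncx1+/+ hearts. Of 12 epicardial markers 11 did so in Ncx1-/- hearts, 7 in Ncx1+/- hearts, where 4 were at 0, and 11 in Ncx1+/+ hearts.

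Levels are CPM of the summed counts of a class in 1 library, and brackets give 95% intervals that cover counting error only. Counts were not divided by gene length, so levels are compared for 1 gene across classes and genotypes, never between genes. A CPM is a share of the RNA counted in a class and cannot tell less of a transcript per nucleus from more of all other RNA. A gene counted as measured with at least 100 counts over the 3 libraries of a class, and as past the fold where its CPM ratio was at least 1.5 or at most the inverse of 1.5. Tallies within single clusters and sub-clusters did not use this minimum. They needed only 1 count in each of the Ncx1-/- and Ncx1+/+ libraries.

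**Figure D1:**
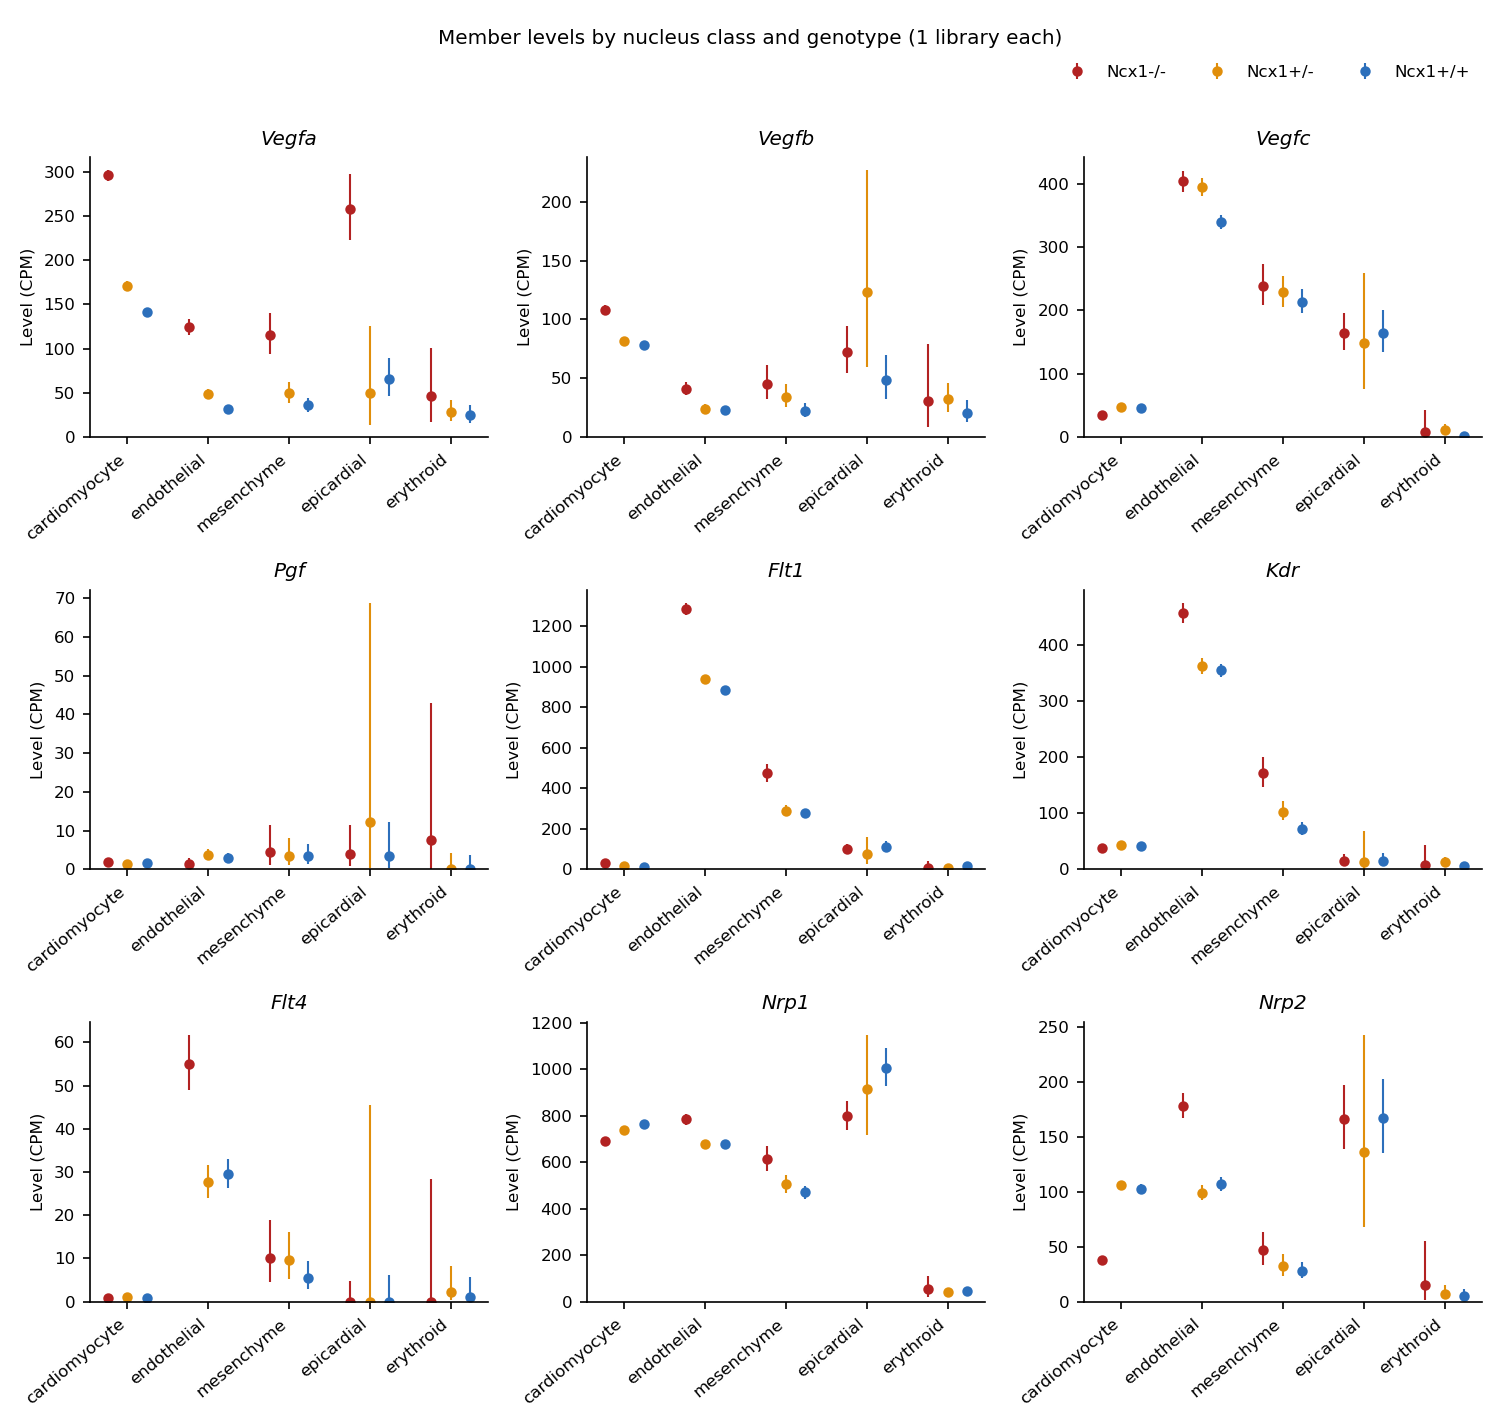
Level (CPM) of each of the 9 genes in 5 nucleus classes, with 1 point per genotype library and bars for the 95% counting interval. Vegfa was highest in cardiomyocyte-like nuclei in all 3 libraries (296, 171 and 141 CPM in Ncx1-/-, Ncx1+/- and Ncx1+/+), whereas Vegfc, Flt1, Kdr and Flt4 were highest in endothelial-like nuclei.

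Vegfa (ENSMUSG00000023951; mm10 chr17:46016993-46032369, minus strand) was mainly a cardiomyocyte transcript in these hearts, and its level was higher in Ncx1-/- nuclei of every class with enough counts. Cardiomyocyte-like nuclei held 76.9% of all Vegfa UMIs of kept nuclei in Ncx1-/- hearts, 77.7% in Ncx1+/- hearts and 79.7% in Ncx1+/+ hearts. Their level was 296 CPM (290–302) in Ncx1-/-, 171 CPM (166–176) in Ncx1+/- and 141 CPM (136–145) in Ncx1+/+ hearts. The Ncx1-/- library stood above both others, at 2.11 times Ncx1+/+ (2.03–2.19), and the heterozygous library stood at 1.21 times Ncx1+/+ (1.16–1.27).

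In endothelial-like nuclei the Vegfa level was 125 CPM in Ncx1-/-, 48.7 CPM in Ncx1+/- and 32.3 CPM in Ncx1+/+ hearts. The ratio of Ncx1-/- to Ncx1+/+ was 3.86 (3.38–4.42) and that of Ncx1+/- to Ncx1+/+ was 1.51 (1.30–1.75), so the heterozygous library lay between the others. Free RNA from broken cells gives counts in nuclei that do not make a transcript, and 14 cardiomyocyte markers stood in endothelial-like nuclei at a median of 11.8% of their cardiomyocyte level in Ncx1-/-, 9.70% in Ncx1+/- and 9.45% in Ncx1+/+ hearts, with single markers between 1.53% and 35.2% over the 3 libraries. Vegfa stood there at 42.1% of its cardiomyocyte level in Ncx1-/-, 28.5% in Ncx1+/- and 23.0% in Ncx1+/+ hearts, above the median of these markers in each library. With that median share of the cardiomyocyte level subtracted, 89.8 CPM remained in Ncx1-/-, 32.2 CPM in Ncx1+/- and 19.0 CPM in Ncx1+/+ hearts, a ratio of 4.73 between Ncx1-/- and Ncx1+/+.

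Vegfa was detected in more single nuclei as well. Thinned shares rest on nuclei with at least 2000 UMIs, each thinned to 2000, whereas unthinned shares rest on all nuclei of the class. Thinning left out 520 of 7798 Ncx1-/-, 781 of 7236 Ncx1+/- and 729 of 7793 Ncx1+/+ cardiomyocyte-like nuclei. Of those thinned, 41.1% held a Vegfa UMI in Ncx1-/-, 26.8% in Ncx1+/- and 23.4% in Ncx1+/+ hearts, against unthinned shares of 58.9% in Ncx1-/-, 40.5% in Ncx1+/- and 38.4% in Ncx1+/+ hearts. For endothelial-like nuclei the thinned share was 21.5% in Ncx1-/-, 9.12% in Ncx1+/- and 6.03% in Ncx1+/+ hearts, and the unthinned share was 33.8% in Ncx1-/-, 17.0% in Ncx1+/- and 13.1% in Ncx1+/+ hearts. Erythroid-like nuclei, a class that should lack Vegfa, gave thinned shares of 13.3% of only 15 nuclei in Ncx1-/-, 4.55% in Ncx1+/- and 6.44% in Ncx1+/+ hearts. Thinning left out 66 of the 81 Ncx1-/-, 289 of the 465 Ncx1+/- and 292 of the 494 Ncx1+/+ erythroid-like nuclei. These shares thus rest on the deepest nuclei of that class. The interval of the erythroid share was 1.66–40.5% in Ncx1-/-, 1.98–8.76% in Ncx1+/- and 3.47–10.8% in Ncx1+/+ hearts, and in each library it overlapped that of the endothelial share, 19.2–23.8% in Ncx1-/-, 7.78–10.6% in Ncx1+/- and 5.01–7.19% in Ncx1+/+ hearts. In Ncx1+/+ hearts the endothelial share was not above the erythroid one. Erythroid-like nuclei are not a matched background, however. Cardiomyocyte markers stood there at a median of 33.6% of their cardiomyocyte level in Ncx1-/-, 29.7% in Ncx1+/- and 21.8% in Ncx1+/+ hearts, above the endothelial medians. This measure thus cannot settle whether the Ncx1+/+ denominator of the endothelial Vegfa ratios lies above background. Median depth before thinning was 3503 UMIs in Ncx1-/-, 4040 in Ncx1+/- and 4845 in Ncx1+/+ endothelial-like nuclei, and it was 1514 UMIs in Ncx1-/-, 1759 in Ncx1+/- and 1844 in Ncx1+/+ erythroid-like nuclei.

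The mutant library was highest in the smaller classes too. Mesenchyme-like nuclei held Vegfa at 115 CPM in Ncx1-/-, 49.6 CPM in Ncx1+/- and 35.8 CPM in Ncx1+/+ hearts, a ratio of Ncx1-/- to Ncx1+/+ of 3.22 (2.40–4.34). These levels were 38.9% of the cardiomyocyte level in Ncx1-/-, 29.1% in Ncx1+/- and 25.5% in Ncx1+/+ hearts. The highest cardiomyocyte marker there reached 37.6% in Ncx1-/-, 32.5% in Ncx1+/- and 36.5% in Ncx1+/+ hearts. The Ncx1+/- and Ncx1+/+ levels thus lay within the marker range, and the part of free RNA in the ratio was not tested. Epicardial-like nuclei held Vegfa at 258 CPM in Ncx1-/-, 49.4 CPM in Ncx1+/- and 65.6 CPM in Ncx1+/+ hearts, with a ratio of 3.93 (2.78–5.70) between Ncx1-/- and Ncx1+/+. Cardiomyocyte markers stood in epicardial-like nuclei at a median of 30.4% of their cardiomyocyte level in Ncx1-/-, 41.1% in Ncx1+/- and 27.5% in Ncx1+/+ hearts, and their part in the epicardial values was not tested.

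RefSeq's build GRCm38.p6 gives Vegfa 2 transcription starts. The 250 bases before the first start of Vegfa (chr17:46032378-46032627, minus strand), before the start of Flt1 (chr5:147726012-147726261, minus strand) and before the start of Kdr (chr5:75978456-75978705, minus strand) are shown because Vegfa stood higher in Ncx1-/- nuclei and Flt1 and Kdr are its receptors. Capitals mark ACGTG and GCGTG, read on either strand (CACGT and CACGC are the reverse complements), the core letters of the element bound by hypoxia-inducible factors.
Vegfa: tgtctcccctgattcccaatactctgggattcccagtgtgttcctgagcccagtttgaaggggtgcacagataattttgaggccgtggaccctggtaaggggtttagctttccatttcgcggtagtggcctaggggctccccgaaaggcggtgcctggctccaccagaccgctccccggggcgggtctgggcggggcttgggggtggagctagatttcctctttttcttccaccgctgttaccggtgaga
Flt1: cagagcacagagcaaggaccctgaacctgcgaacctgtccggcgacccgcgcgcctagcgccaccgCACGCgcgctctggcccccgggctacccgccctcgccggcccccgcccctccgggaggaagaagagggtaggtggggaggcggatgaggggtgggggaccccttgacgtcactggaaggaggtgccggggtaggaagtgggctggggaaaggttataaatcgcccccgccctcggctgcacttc
Kdr: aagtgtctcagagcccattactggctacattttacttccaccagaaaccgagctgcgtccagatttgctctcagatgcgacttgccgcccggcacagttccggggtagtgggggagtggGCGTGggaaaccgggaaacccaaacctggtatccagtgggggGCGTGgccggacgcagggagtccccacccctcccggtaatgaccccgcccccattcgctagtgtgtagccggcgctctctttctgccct
The first Vegfa window held neither word, the Flt1 window held 1 GCGTG and the Kdr window held 2 GCGTG. The window before the second Vegfa start (chr17:46025164-46025413), which lies inside the gene, held 1 ACGTG and 1 GCGTG. All 9 genes matched by symbol, with 11 windows between them, and 7 of the 11 windows held at least 1 of the words. Among 32851 windows of the same length before all RefSeq starts 38.6% did, 16.6% with ACGTG and 28.2% with GCGTG.

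Among cardiomyocyte-like nuclei, clusters were assigned to a chamber from marker genes, and Vegfa was highest in those of the atrioventricular canal, the segment between atrium and ventricle that induces the valve cushions. Its level there was 392 CPM in Ncx1-/-, 229 CPM in Ncx1+/- and 185 CPM in Ncx1+/+ hearts. In ventricular nuclei it was 277 CPM in Ncx1-/-, 174 CPM in Ncx1+/- and 139 CPM in Ncx1+/+ hearts, and in atrial nuclei 287 CPM in Ncx1-/-, 139 CPM in Ncx1+/- and 96.4 CPM in Ncx1+/+ hearts. Atrial nuclei were the second highest of the 4 chambers in Ncx1-/- hearts and the lowest in Ncx1+/+ hearts, with a ratio of 2.97 (2.66–3.33) between these libraries. Outflow tract nuclei held 257 CPM in Ncx1-/-, 131 CPM in Ncx1+/- and 137 CPM in Ncx1+/+ hearts, from only 110 nuclei in Ncx1-/- against 748 in Ncx1+/- and 889 in Ncx1+/+ hearts.

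**Figure D2:**
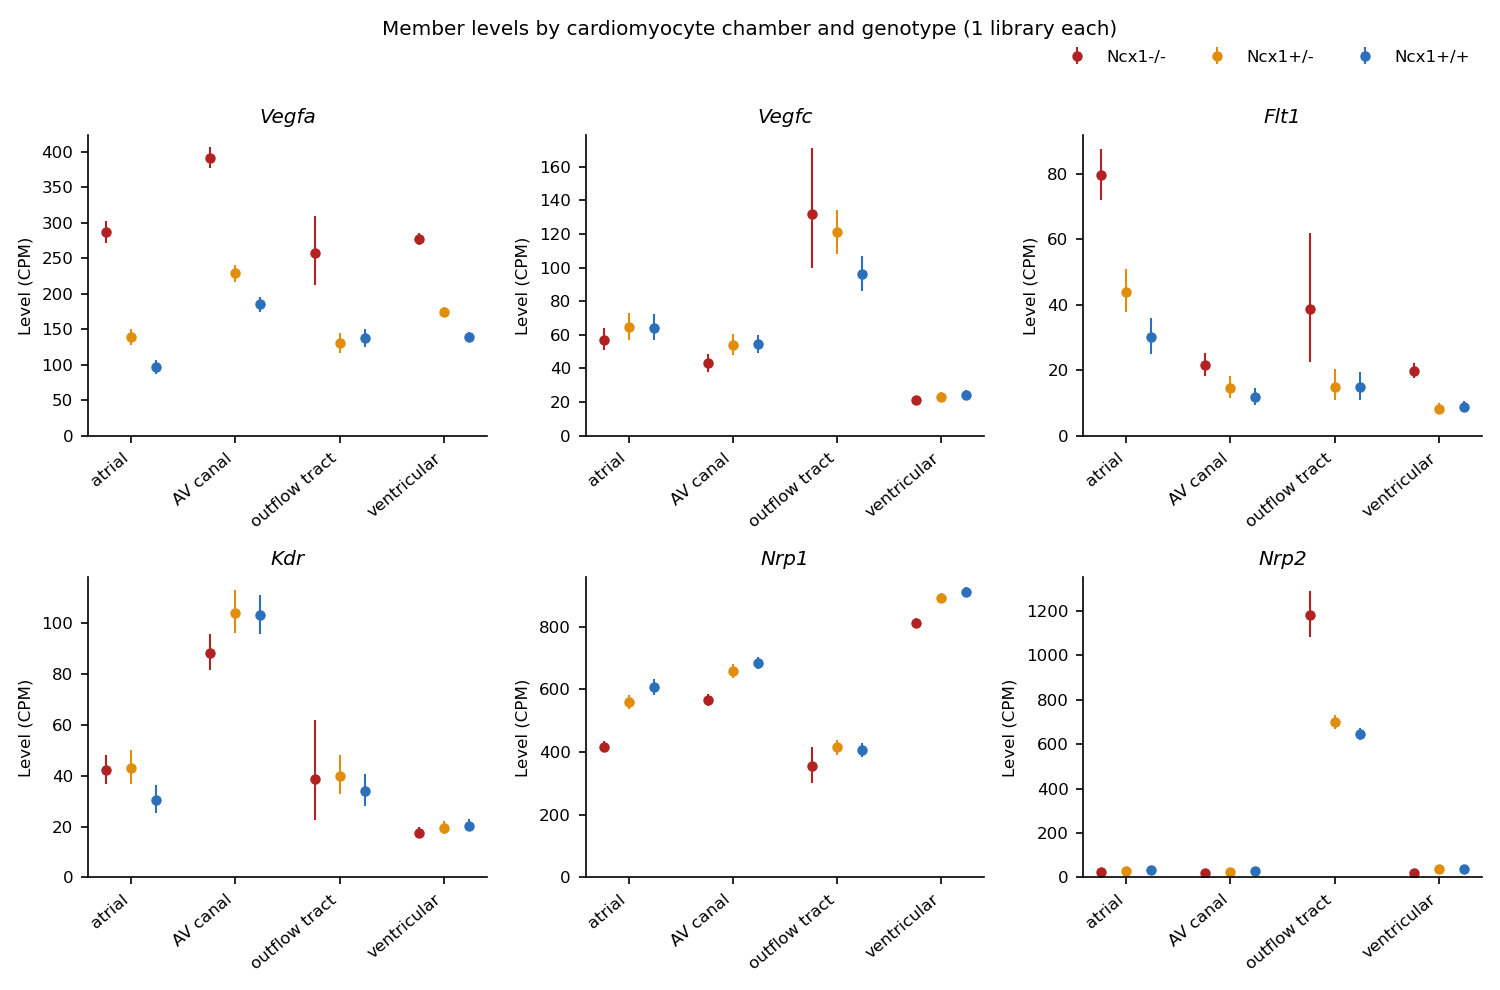
Level (CPM) of 6 of the genes in cardiomyocyte-like nuclei of 4 chambers, 1 point per genotype library with its 95% counting interval. Vegfa stood higher in Ncx1-/- in each chamber, Kdr was highest in the atrioventricular (AV) canal, and Nrp2 was highest in the outflow tract.

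Different clusters held most nuclei of a chamber in different genotypes. Most atrioventricular canal nuclei belonged to cluster 11 in Ncx1-/- hearts and to cluster 0 in Ncx1+/- and Ncx1+/+ hearts, and most ventricular nuclei belonged to clusters 6 and 7 in Ncx1-/- hearts and to clusters 3 and 4 in Ncx1+/- and Ncx1+/+ hearts. Within single clusters the direction between Ncx1-/- and Ncx1+/+ held for Vegfa. In all 8 cardiomyocyte-like clusters with at least 20 nuclei in both Ncx1-/- and Ncx1+/+ hearts the Vegfa level was higher in Ncx1-/-, with ratios between 1.28 and 2.97, and 7 of the 8 were past 1.5. Between Ncx1-/- and Ncx1+/- the picture differed by cluster. In cluster 1 (atrial), which held 1314 Ncx1-/- nuclei, Vegfa stood at 287 CPM in Ncx1-/- and 139 CPM in Ncx1+/- nuclei. In cluster 0 it stood at 316 CPM in Ncx1-/- and 195 CPM in Ncx1+/- nuclei, and in cluster 2 at 163 and 102 CPM. The same 2 libraries had 208 and 140 CPM in cluster 4 and 257 and 131 CPM in cluster 10 (outflow tract). In cluster 9, kept out of the class, they had 285 and 120 CPM. The levels lay closer together in clusters 3, 11, 7, 6 and 13. Cluster 3 had 187 CPM (141–242) in its 70 Ncx1-/- nuclei and 166 CPM (154–179) in Ncx1+/- nuclei. Vegfa stood at 429 CPM in Ncx1-/- and 457 CPM in Ncx1+/- nuclei of cluster 11 (ratio 0.939, 0.835–1.06), and at 333 CPM in Ncx1-/- and 317 CPM in Ncx1+/- nuclei of cluster 7 (1.05, 0.940–1.18). In cluster 6 it stood at 224 CPM in Ncx1-/- and 190 CPM in Ncx1+/- nuclei (1.18, 1.05–1.32), and in cluster 13, kept out of the class, at 302 CPM in Ncx1-/- and 347 CPM in Ncx1+/- nuclei (0.872, 0.751–1.02). In clusters 11, 7, 6 and 13 no ratio of Ncx1-/- to Ncx1+/- passed the fold. In the 5 endothelial-like sub-clusters where both the Ncx1-/- and Ncx1+/+ libraries had Vegfa counts, the ratio of Ncx1-/- to Ncx1+/+ lay between 3.58 and 5.37. The Ncx1+/+ counts there were few, at 26, 17, 7, 8 and 6 in sub-clusters 1, 5, 7, 8 and 11.

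Vegfb (ENSMUSG00000024962; chr19:6982473-6987651, minus strand), a Flt1 ligand linked in heart and muscle to fatty acid uptake, was also mainly cardiomyocyte RNA, with 78.7% of its UMIs in cardiomyocyte-like nuclei of Ncx1-/-, 74.2% of Ncx1+/- and 74.3% of Ncx1+/+ hearts. Its cardiomyocyte level was 108 CPM in Ncx1-/-, 81.5 CPM in Ncx1+/- and 78.4 CPM in Ncx1+/+ hearts, a ratio of 1.38 (1.31–1.46) between Ncx1-/- and Ncx1+/+ that did not pass the fold. Atrioventricular canal nuclei did pass it, with 104 CPM in Ncx1-/-, 70.2 CPM in Ncx1+/- and 57.1 CPM in Ncx1+/+ hearts and a ratio of 1.82 (1.60–2.06). In endothelial-like nuclei Vegfb stood at 41.2 CPM in Ncx1-/-, 24.0 CPM in Ncx1+/- and 22.8 CPM in Ncx1+/+ hearts. Erythroid-like nuclei held 30.8 CPM (8.40–79.0) in Ncx1-/-, 32.1 CPM (21.3–46.4) in Ncx1+/- and 20.4 CPM (12.5–31.5) in Ncx1+/+ hearts, intervals that hold the endothelial level of each library. The endothelial level was 38.0% of the cardiomyocyte level in Ncx1-/-, 29.5% in Ncx1+/- and 29.1% in Ncx1+/+ hearts, where the highest cardiomyocyte marker reached 35.2% in Ncx1-/-, 31.9% in Ncx1+/- and 31.5% in Ncx1+/+ hearts. Erythroid-like nuclei held more free cardiomyocyte RNA than endothelial-like ones, by the marker medians above, and are not a matched background. Whether endothelial Vegfb lay above background was thus not settled. Its endothelial ratio of Ncx1-/- to Ncx1+/+ was 1.80 (1.5–2.18), and 1.39 when each of 8 sub-clusters was given the same weight in all 3 libraries. That weight was the number of its Ncx1+/+ nuclei, and sub-clusters with fewer than 10 nuclei in any library were left out. Equal weights, here and below, are weights equal across libraries, not across sub-clusters or clusters.

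Vegfc (ENSMUSG00000031520; chr8:54077606-54187096, plus strand), the Flt4 ligand best known for lymphatic growth, came mainly from endothelial-like nuclei, which held 52.2% of its UMIs in Ncx1-/-, 61.9% in Ncx1+/- and 60.5% in Ncx1+/+ hearts. Its endothelial level was 404 CPM in Ncx1-/-, 395 CPM in Ncx1+/- and 340 CPM in Ncx1+/+ hearts, and the order of the classes (endothelial, mesenchyme, epicardial, cardiomyocyte, erythroid) was the same in all 3 libraries. The endothelial ratio of Ncx1-/- to Ncx1+/+ was 1.19 (1.13–1.25). Cardiomyocyte-like nuclei went the other way, with 34.3 CPM in Ncx1-/-, 48.1 CPM in Ncx1+/- and 46.2 CPM in Ncx1+/+ hearts and a ratio of 0.744 (0.686–0.806). Neither ratio passed the fold. Among chambers Vegfc was highest in the outflow tract and lowest in the ventricle in every library, at 132 and 21.1 CPM in Ncx1-/- hearts, 121 and 23.2 CPM in Ncx1+/- hearts, and 96.3 and 24.5 CPM in Ncx1+/+ hearts.

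Pgf (ENSMUSG00000004791; chr12:85166635-85177790, minus strand), placental growth factor, was close to the limit of counting. Its cardiomyocyte level was 1.92 CPM in Ncx1-/-, 1.45 CPM in Ncx1+/- and 1.68 CPM in Ncx1+/+ hearts, and the interval of the Ncx1-/- to Ncx1+/+ ratio ran from 0.775 to 1.70. Only 68 Pgf counts fell in endothelial-like nuclei over the 3 libraries, below the minimum, and no difference between genotypes was detectable at this depth.

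Flt1 (ENSMUSG00000029648; chr5:147561604-147726011, minus strand) was mainly endothelial RNA. Endothelial-like nuclei held 70.3% of its UMIs in Ncx1-/-, 84.9% in Ncx1+/- and 85.4% in Ncx1+/+ hearts, at levels of 1284 CPM in Ncx1-/-, 938 CPM in Ncx1+/- and 882 CPM in Ncx1+/+ hearts. The ratio of Ncx1-/- to Ncx1+/+ was 1.46 (1.41–1.5), just short of the fold, and 1.20 with equal weights for the sub-clusters. Mesenchyme-like nuclei came next in every library, with 473 CPM in Ncx1-/-, 288 CPM in Ncx1+/- and 276 CPM in Ncx1+/+ hearts.

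Kdr (ENSMUSG00000062960; chr5:75932827-75978458, minus strand), the main signalling receptor, stood at 457 CPM in Ncx1-/-, 363 CPM in Ncx1+/- and 355 CPM in Ncx1+/+ endothelial-like nuclei. Its ratio of Ncx1-/- to Ncx1+/+ was 1.29 (1.22–1.36). With equal weights for the sub-clusters the levels were 453 CPM in Ncx1-/-, 424 CPM in Ncx1+/- and 448 CPM in Ncx1+/+ hearts, a ratio of 1.01. This left out sub-clusters 2 and 4, which held 399 and 360 Ncx1+/+ nuclei. Sub-clusters 1, 6 and 10 weighed as 367, 331 and 145 Ncx1+/+ nuclei but held only 23, 14 and 11 Ncx1-/- nuclei. Within the single sub-clusters described below Kdr was higher in 5 of 6, with a median ratio of 1.5. The size of the endothelial difference thus depends on how the sub-clusters are weighted.

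Flt4 (ENSMUSG00000020357; chr11:49609263-49652739, plus strand), the Vegfc receptor, was the receptor with the fewest counts, and 78.0% of its UMIs lay in endothelial-like nuclei in Ncx1-/-, 78.5% in Ncx1+/- and 82.2% in Ncx1+/+ hearts. Its endothelial level was 55.0 CPM in Ncx1-/-, 27.6 CPM in Ncx1+/- and 29.5 CPM in Ncx1+/+ hearts, so that the heterozygous and wild-type libraries lay close together and the mutant library stood above both. The ratio of Ncx1-/- to Ncx1+/+ was 1.87 (1.58–2.20), and 1.52 with equal weights. Flt4 had no count in epicardial-like nuclei of any library.

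In endothelial-like nuclei, then, 4 of the 8 measured VEGF genes (Vegfa, Vegfb, Flt4 and Nrp2) were past 1.5-fold higher in Ncx1-/- than in Ncx1+/+ hearts and 0 were past it lower. Of all 10787 genes measured in this class 15.8% were past the fold higher and 6.64% lower. The median log2 ratio was 0.64 for the 8 genes and 0.10 for all genes. Of the 4, Vegfb lay within the interval of the erythroid level in each library, and Vegfa was not above the erythroid share of nuclei in Ncx1+/+ hearts. Erythroid-like nuclei, as said above, are not a matched background for either. The mix of vascular-like and endocardial-like sub-clusters also differed between libraries, as given below. Under scalings that set the all-gene median to -0.03 (TMM factors) or -0.04 (median of ratios) the same 4 genes stood past the fold. In Ncx1+/- against Ncx1+/+ hearts only Vegfa of the 8 was past it, where 3.16% of all genes were, and it fell short of 1.5 under either of those scalings.

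**Figure D3:**
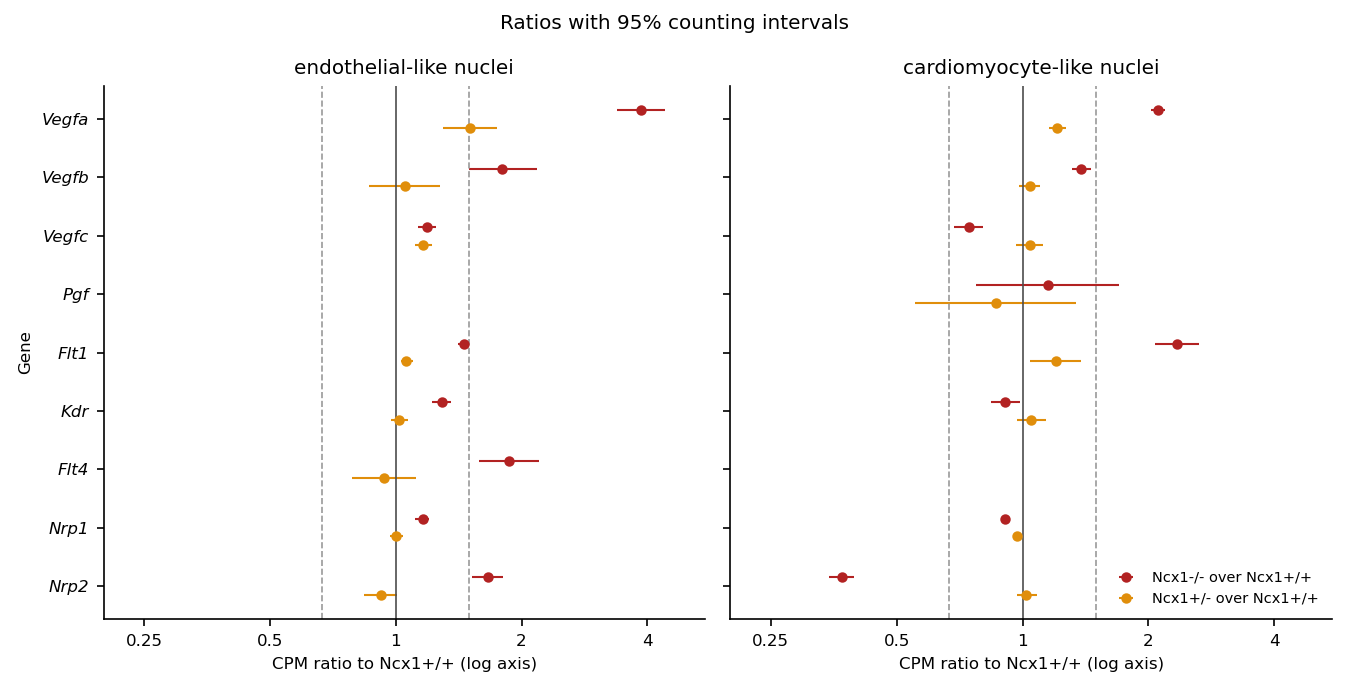
CPM ratios to the Ncx1+/+ library for each measured gene in endothelial-like (left) and cardiomyocyte-like (right) nuclei, on a log axis with 95% counting intervals and dashed lines at 1.5-fold in each direction. Vegfa lies to the right in both classes for Ncx1-/- (3.86 and 2.11), whereas Nrp2 lies right of 1 in endothelial-like nuclei (1.66) and left of 1 in cardiomyocyte-like nuclei (0.370).

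Endothelial-like nuclei fell into sub-clusters of unequal make-up. Sub-clusters 0, 7 and 8 held 530, 311 and 294 of the 1379 Ncx1-/- nuclei, against 175, 114 and 102 of the 1798 Ncx1+/- nuclei and 23, 42 and 68 of the 2021 Ncx1+/+ nuclei. Sub-clusters 1, 2, 4 and 6 held 23, 1, 7 and 14 Ncx1-/- nuclei, against 333, 262, 262 and 169 Ncx1+/- nuclei and 367, 399, 360 and 331 Ncx1+/+ nuclei. Ratios within a sub-cluster therefore rest on few nuclei of at least 1 library. Vascular endothelial markers had the highest average in sub-clusters 0, 7 and 8 (0.527, 0.509 and 0.712, against 0.378, 0.428 and 0.469 for endocardial markers). Endocardial markers had it in the other endothelial-like sub-clusters, with 0.412, 0.432, 0.531 and 0.547 in sub-clusters 1, 2, 4 and 6. Endothelial ratios over the whole class thus set mostly vascular-like Ncx1-/- nuclei against mostly endocardial-like Ncx1+/+ nuclei.

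Within the 6 sub-clusters that had at least 20 nuclei in both Ncx1-/- and Ncx1+/+ hearts, Flt1 was higher in Ncx1-/- in 6 and past the fold in 3, with ratios between 1.04 and 2.15. Kdr was higher in 5 of the 6 and past the fold in 3, between 0.836 and 1.70. Flt4 was past the fold in 5 of the 6, between 0.903 and 5.89, and Nrp2 in 2 of the 6, between 0.833 and 2.19. The highest Flt4 ratio rests on 1 Ncx1+/+ count in sub-cluster 7, and sub-cluster 0 had 2 Ncx1+/+ Flt4 counts. Flt4 in sub-clusters 5, 7 and 8 and Nrp2 in sub-cluster 11 stayed below 100 counts over the 3 libraries. Nrp1 was past it in 0 of the 6. Sub-cluster 0, led by Cacng3, Slc26a10 and Xist, had Vegfa at 96.3 CPM in Ncx1-/- and 98.6 CPM in Ncx1+/- nuclei, and no Vegfa count in its 23 Ncx1+/+ nuclei. Sub-cluster 8, led by Pak7, Tll1 and Pcdh17, had Vegfa at 160 CPM in Ncx1-/-, 22.9 CPM in Ncx1+/- and 29.9 CPM in Ncx1+/+ nuclei, so only the mutant library was high there.

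**Figure D4:**
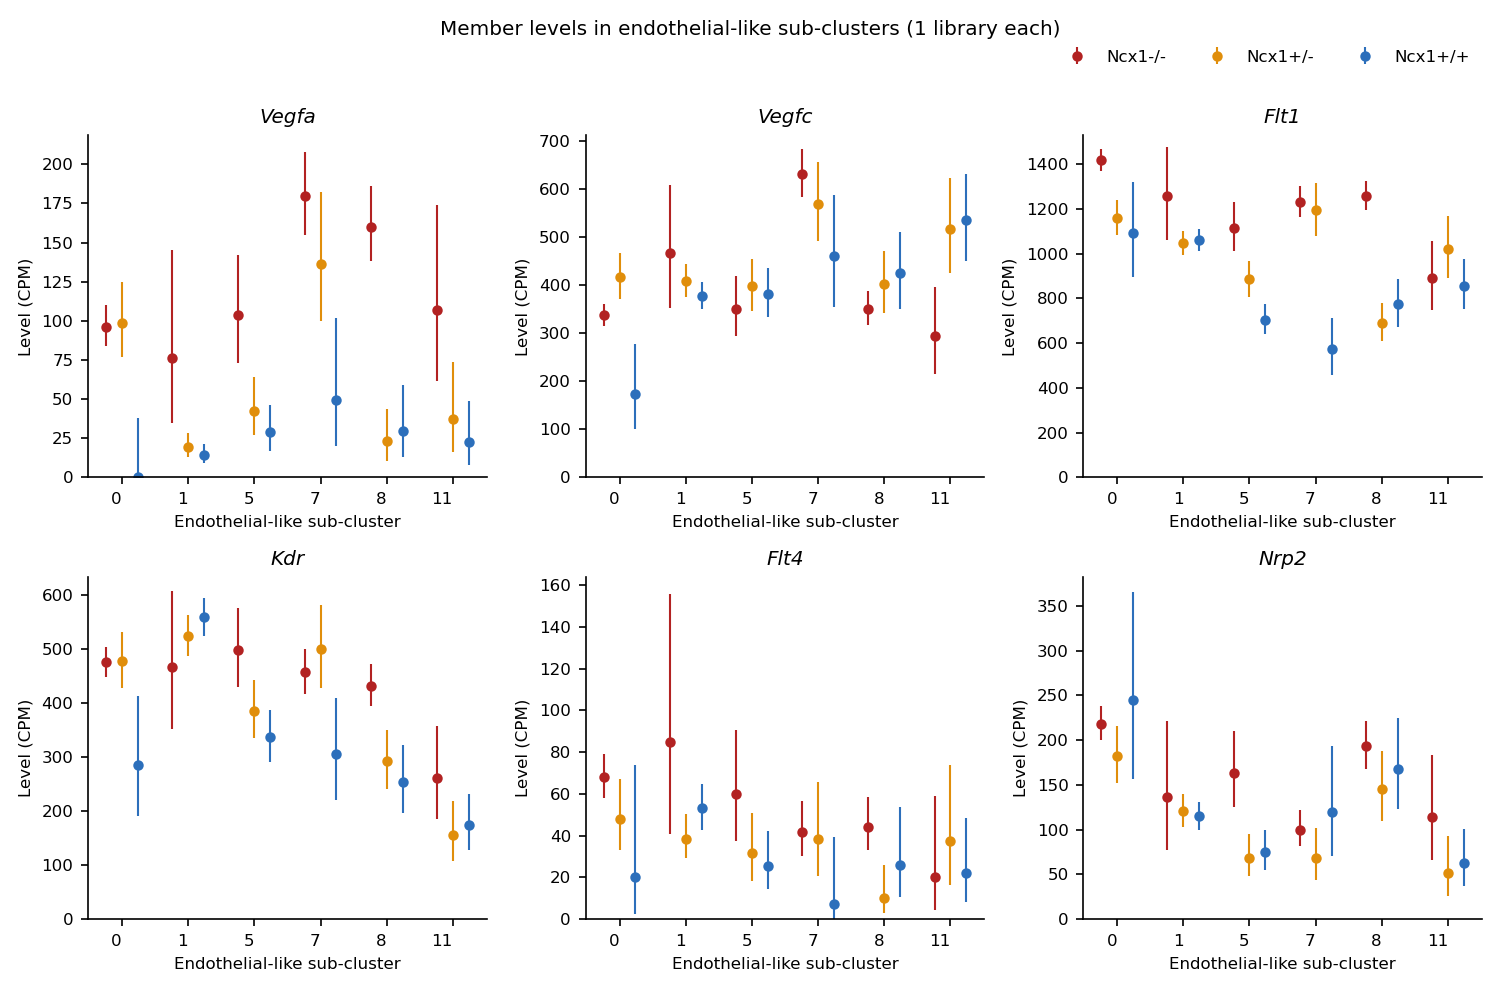
Level (CPM) of 6 of the genes in the 6 endothelial-like sub-clusters with at least 20 nuclei in both the Ncx1-/- and Ncx1+/+ libraries, 1 point per genotype library with its 95% counting interval. In sub-cluster 8 the Vegfa level was 160 CPM in Ncx1-/- nuclei, above 22.9 CPM in Ncx1+/- and 29.9 CPM in Ncx1+/+ nuclei.

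Over the whole endothelial-like class, receptor RNA was counted in more single nuclei of mutant hearts at equal depth. Thinning to 2000 UMIs left out the shallower nuclei, 116 of 1379 in Ncx1-/-, 131 of 1798 in Ncx1+/- and 97 of 2021 in Ncx1+/+ hearts. Flt1 was found in 83.1% of thinned nuclei in Ncx1-/-, 76.2% in Ncx1+/- and 75.5% in Ncx1+/+ hearts (unthinned, over all nuclei, 91.0% in Ncx1-/-, 86.9% in Ncx1+/- and 88.1% in Ncx1+/+). Kdr was found in 51.9% of thinned nuclei in Ncx1-/-, 42.5% in Ncx1+/- and 39.9% in Ncx1+/+ hearts (unthinned 68.6% in Ncx1-/-, 57.2% in Ncx1+/- and 58.1% in Ncx1+/+), and both receptors together in 44.1% in Ncx1-/-, 34.1% in Ncx1+/- and 31.1% in Ncx1+/+ hearts. For both receptors the mutant library was highest and the other libraries differed little. The mix of sub-clusters was not held equal for these shares. With equal weights the CPM ratios of Ncx1-/- to Ncx1+/+ were 1.20 for Flt1 and 1.01 for Kdr, as given above.

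Outside the endothelium, receptor levels in cardiomyocyte-like nuclei were low and are set beside the free RNA there. A median of 1.52% of the endothelial level was found in these nuclei for 17 endothelial markers in Ncx1-/-, 1.65% in Ncx1+/- and 1.75% in Ncx1+/+ hearts, with the highest single marker at 3.28% in Ncx1-/-, 4.24% in Ncx1+/- and 4.21% in Ncx1+/+ hearts. Flt1 stood at 2.41% of its endothelial level in Ncx1-/-, 1.69% in Ncx1+/- and 1.5% in Ncx1+/+ hearts, within the range of those markers. The marker median was lower in Ncx1-/- than in Ncx1+/+ hearts, whereas the Flt1 share was higher. Its cardiomyocyte level of 31.0 CPM in Ncx1-/-, 15.8 CPM in Ncx1+/- and 13.2 CPM in Ncx1+/+ hearts gave a ratio of Ncx1-/- to Ncx1+/+ of 2.34 (2.08–2.64), and Flt1 was higher in Ncx1-/- in 8 of 8 cardiomyocyte-like clusters and past the fold in 7. The part of free RNA in this ratio was not tested. Among the single clusters, the Flt1 ratio of cluster 7 rests on 2 Ncx1+/+ counts and that of cluster 6 on 8. That of cluster 3 rests on 6 Ncx1-/- counts. Atrial nuclei were the highest of the 4 chambers in every library, with 79.5 CPM in Ncx1-/-, 43.9 CPM in Ncx1+/- and 30.1 CPM in Ncx1+/+ hearts. That is 6.19% of the endothelial level in Ncx1-/-, 4.68% in Ncx1+/- and 3.42% in Ncx1+/+ hearts, where the endothelial markers had a median of 1.40% in Ncx1-/-, 1.54% in Ncx1+/- and 1.79% in Ncx1+/+ hearts and the highest of them reached 6.25% in Ncx1-/-, 6.54% in Ncx1+/- and 7.07% in Ncx1+/+ hearts.

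Kdr in cardiomyocyte-like nuclei lay above that range. It stood at 8.34% of its endothelial level in Ncx1-/-, 12.1% in Ncx1+/- and 11.8% in Ncx1+/+ hearts, with levels of 38.1 CPM in Ncx1-/-, 44.0 CPM in Ncx1+/- and 41.9 CPM in Ncx1+/+ hearts. The atrioventricular canal had the highest level of the 4 chambers: 88.3 CPM in Ncx1-/-, 104 CPM in Ncx1+/- and 103 CPM in Ncx1+/+ hearts. That is 19.3% of the endothelial Kdr level in Ncx1-/-, 28.7% in Ncx1+/- and 29.0% in Ncx1+/+ hearts, where the highest endothelial marker in canal nuclei reached 3.85% in Ncx1-/-, 4.42% in Ncx1+/- and 4.84% in Ncx1+/+ hearts. Ventricular nuclei held Kdr at 17.5 CPM in Ncx1-/-, 19.4 CPM in Ncx1+/- and 20.4 CPM in Ncx1+/+ hearts, the lowest of the 4 chambers in every library. Canal Kdr did not pass the fold between Ncx1-/- and Ncx1+/+ hearts, with a ratio of 0.857, but its direction depends on the clusters. Within canal cluster 0 it stood at 131 CPM (116–147) in Ncx1-/-, 110 CPM (101–120) in Ncx1+/- and 103 CPM (95.6–111) in Ncx1+/+ nuclei, and in cluster 11 at 67.5 CPM in Ncx1-/- and 64.9 CPM in Ncx1+/- nuclei, with only 2 nuclei in Ncx1+/+ hearts. Kdr was higher in Ncx1-/- than in Ncx1+/+ nuclei in 7 of 8 cardiomyocyte-like clusters, past the fold higher in 1 and lower in 1. With equal weights for the clusters Kdr stood at 50.3 CPM in Ncx1-/-, 46.4 CPM in Ncx1+/- and 41.9 CPM in Ncx1+/+ hearts, a ratio of 1.20, against 0.910 for the class as a whole. Cluster 11, which held 1167 of the 1795 Ncx1-/- canal nuclei, had too few Ncx1+/+ nuclei for this weighting and was left out.

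Nrp1 (ENSMUSG00000025810; chr8:128358604-128503363, plus strand), the co-receptor for Vegfa and for Sema3a, was high in cardiomyocyte-like, endothelial-like, mesenchyme-like and epicardial-like nuclei and low in erythroid-like ones. Cardiomyocyte-like nuclei held it at 690 CPM in Ncx1-/-, 738 CPM in Ncx1+/- and 762 CPM in Ncx1+/+ hearts, endothelial-like nuclei at 784 CPM in Ncx1-/-, 678 CPM in Ncx1+/- and 676 CPM in Ncx1+/+ hearts, and epicardial-like nuclei at 798 CPM in Ncx1-/-, 913 CPM in Ncx1+/- and 1006 CPM in Ncx1+/+ hearts. Erythroid-like nuclei held 54.0 CPM in Ncx1-/-, 42.4 CPM in Ncx1+/- and 45.9 CPM in Ncx1+/+ hearts. The endothelial ratio of Ncx1-/- to Ncx1+/+ was 1.16 (1.11–1.20) and the cardiomyocyte ratio 0.906 (0.889–0.923), neither past the fold. Atrial nuclei had the lowest ratio of the 4 chambers, 0.688 (0.649–0.729), from 418 CPM in Ncx1-/-, 560 CPM in Ncx1+/- and 608 CPM in Ncx1+/+ hearts. Ventricular nuclei were highest and outflow tract nuclei lowest in all 3 libraries.

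Nrp2 (ENSMUSG00000025969; chr1:62703285-62818695, plus strand), the co-receptor for Vegfc and for Sema3f and Sema3c, was the gene most bound to 1 chamber. The annotation places the antisense gene Gm29083 over it, and no source used here states the counting strand, so Nrp2 counts may include reads of that gene. Outflow tract nuclei held Nrp2 at 1182 CPM in Ncx1-/-, 699 CPM in Ncx1+/- and 644 CPM in Ncx1+/+ hearts. The next chamber in each library stood at 22.4 CPM (atrial) in Ncx1-/-, 37.5 CPM (ventricular) in Ncx1+/- and 36.7 CPM (ventricular) in Ncx1+/+ hearts, lower by 52.7 times in Ncx1-/-, 18.7 times in Ncx1+/- and 17.5 times in Ncx1+/+ hearts. The outflow tract ratio of Ncx1-/- to Ncx1+/+ was 1.83 (1.66–2.02).

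Over all cardiomyocyte-like nuclei Nrp2 had the opposite direction, at 38.1 CPM in Ncx1-/-, 106 CPM in Ncx1+/- and 103 CPM in Ncx1+/+ hearts, a ratio of 0.370 (0.345–0.395). Outflow tract nuclei as named here, where the gene is highest, made up 0.979% of kept nuclei in Ncx1-/-, 6.64% in Ncx1+/- and 7.13% in Ncx1+/+ hearts. When each of 8 cardiomyocyte-like clusters was given the same weight in the 3 libraries, Nrp2 stood at 155 CPM in Ncx1-/-, 116 CPM in Ncx1+/- and 106 CPM in Ncx1+/+ hearts, which turns the direction. Of these 8 only the outflow tract cluster, with 110 Ncx1-/- nuclei, was itself higher in Ncx1-/- than in Ncx1+/+ hearts. Outside the outflow tract Nrp2 was lower in Ncx1-/- in each of the other 7 clusters compared, past the fold in 5, for instance in ventricular nuclei with 20.4 CPM in Ncx1-/-, 37.5 CPM in Ncx1+/- and 36.7 CPM in Ncx1+/+ hearts (ratio 0.556, 0.483–0.639). Of the clusters past the fold, cluster 3 had 6 Ncx1-/- Nrp2 counts and cluster 7 had 4 Ncx1+/+ counts. Clusters 13 and 9 were kept out of the class because more heart field progenitor than cardiomyocyte markers were among their leading genes. Cluster 13 held 928 Ncx1-/-, 200 Ncx1+/- and 16 Ncx1+/+ nuclei, with Nrp2 at 114 CPM in Ncx1-/-, 60.0 CPM in Ncx1+/- and 425 CPM in Ncx1+/+ nuclei. Its outflow tract markers averaged 0.443 of their highest cluster level, more than those of any other chamber, against 0.901 in outflow tract cluster 10. Tdgf1 and Fam19a2 were among the leading genes of both clusters. Its place in the outflow tract was not tested, so the outflow tract share and level depend on this naming. Cluster 9 held 33 Ncx1-/-, 806 Ncx1+/- and 1083 Ncx1+/+ nuclei, with Nrp2 at 65.3 CPM in Ncx1-/-, 104 CPM in Ncx1+/- and 92.5 CPM in Ncx1+/+ nuclei.

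**Figure D5:**
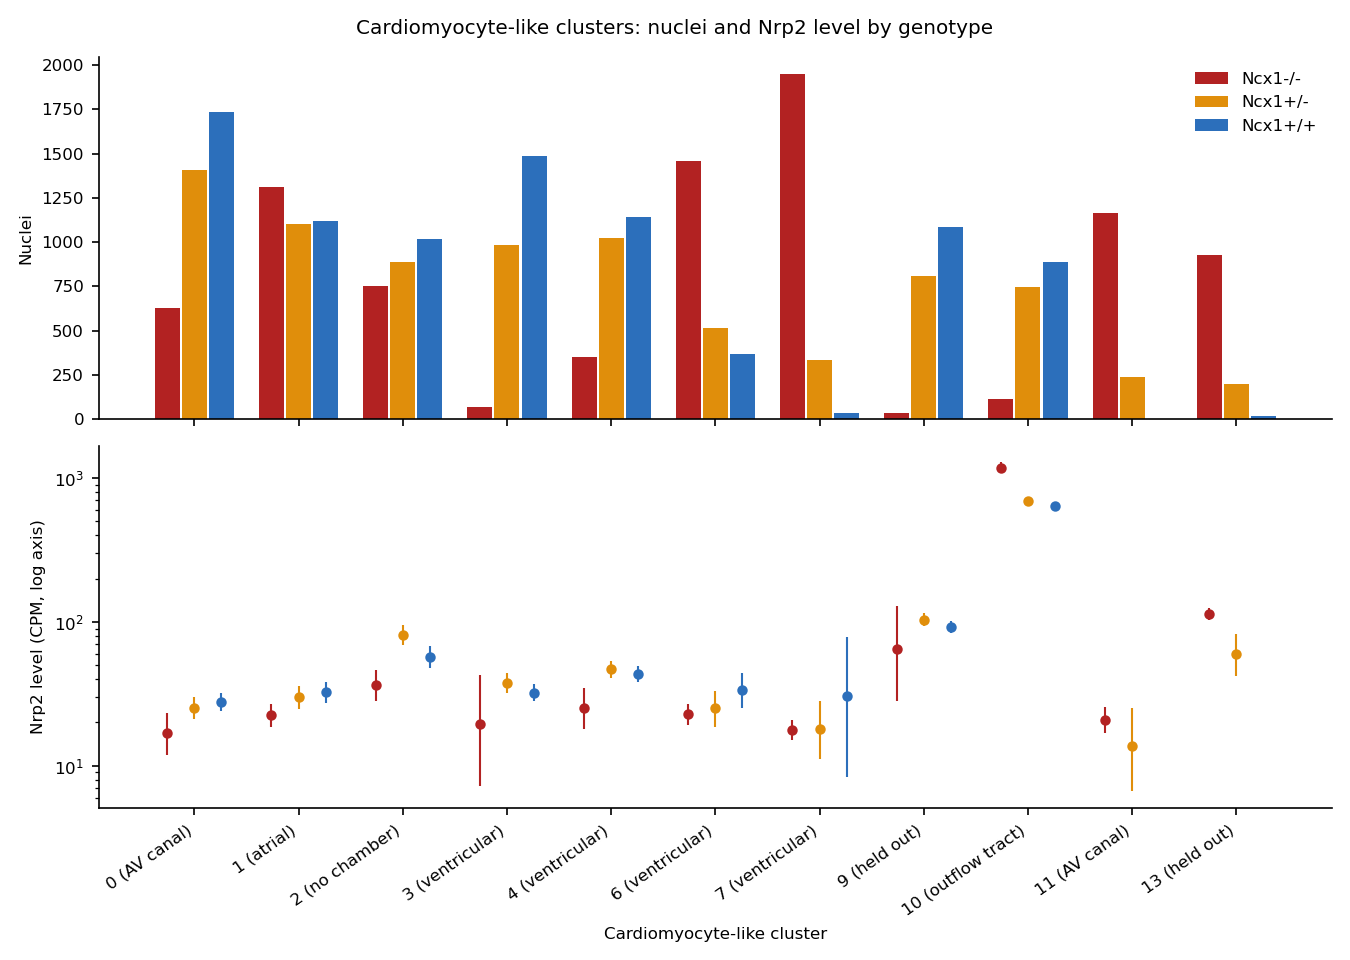
Number of nuclei (top) and Nrp2 level in CPM on a log axis (bottom) in each cardiomyocyte-like cluster, with the chamber in brackets and 95% counting intervals. Cluster 10 (outflow tract) had the highest Nrp2 level, 1182 CPM in Ncx1-/-, 699 CPM in Ncx1+/- and 644 CPM in Ncx1+/+, and held 110 Ncx1-/-, 748 Ncx1+/- and 889 Ncx1+/+ nuclei.

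In endothelial-like nuclei Nrp2 stood at 178 CPM in Ncx1-/-, 99.2 CPM in Ncx1+/- and 107 CPM in Ncx1+/+ hearts, a ratio of Ncx1-/- to Ncx1+/+ of 1.66 (1.52–1.81). With equal weights for the sub-clusters the levels were 129 CPM in Ncx1-/-, 102 CPM in Ncx1+/- and 111 CPM in Ncx1+/+ hearts, a ratio of 1.16 that no longer passed the fold.

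Over the cardiomyocyte-like class, 2 of the 8 measured VEGF genes (Vegfa, and Flt1 at the low levels above) were past the fold higher in Ncx1-/- than in Ncx1+/+ hearts, where 6.97% of all 13879 measured genes were. In the other direction 1 of the 8 (Nrp2) was past the fold, where 6.10% of all genes were. The median log2 ratio was 0.03 for the 8 genes and -0.03 for all genes. Of the 8 genes 0 were past the fold in Ncx1+/- against Ncx1+/+ hearts, where 2.30% of all genes were. By chamber, counting either direction for Ncx1-/- against Ncx1+/+, 2 of 7 measured genes passed in atrial nuclei (13.5% of all genes), 3 of 7 in atrioventricular canal nuclei (13.8%), 3 of 7 in outflow tract nuclei (27.1%) and 3 of 7 in ventricular nuclei (12.0%). Vegfa and Flt1 were among them in each chamber.

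In mesenchyme-like nuclei 5 of 7 measured VEGF genes passed the fold, all higher in Ncx1-/- than in Ncx1+/+ hearts, where 20.5% of all genes passed in either direction. They were Vegfa, Vegfb (ratio 2.04, 1.32–3.12), Flt1 (1.72, 1.51–1.94), Kdr (2.39, 1.91–2.98) and Nrp2 (1.65, 1.09–2.46). Kdr stood at 172 CPM in Ncx1-/-, 103 CPM in Ncx1+/- and 72.1 CPM in Ncx1+/+ hearts. Endothelial markers also stood higher there in mutant hearts, at a median of 57.8% of their endothelial level in Ncx1-/-, 53.9% in Ncx1+/- and 44.0% in Ncx1+/+ hearts, and their part in these ratios was not tested. The nuclei differed in kind, however: 215 of the 230 Ncx1-/- nuclei were of sub-cluster 9, and 404 of the 499 Ncx1+/+ nuclei of sub-cluster 3. In sub-cluster 9 cushion mesenchyme markers averaged 0.503 of their highest sub-cluster level and endocardial markers 0.459, so its name is a close call. In sub-cluster 3 these averages were 0.822 and 0.355. Within sub-cluster 9 Vegfa stayed higher, at 116 CPM in Ncx1-/-, 77.8 CPM in Ncx1+/- and 59.6 CPM in Ncx1+/+ nuclei (ratio of Ncx1-/- to Ncx1+/+ 1.95, 1.18–3.38). Kdr there had the opposite direction, at 184 CPM in Ncx1-/-, 221 CPM in Ncx1+/- and 308 CPM in Ncx1+/+ nuclei (ratio 0.597, 0.460–0.777), the Flt1 ratio was 0.980, and Nrp2 stood at 50.4 CPM in Ncx1-/-, 57.1 CPM in Ncx1+/- and 69.1 CPM in Ncx1+/+ nuclei (ratio 0.730, 0.426–1.28). In Ncx1+/- against Ncx1+/+ mesenchyme 1 of the 7 passed the fold (Vegfb, 1.54, 1.03–2.32), where 4.66% of all genes did. In epicardial-like nuclei 1 of 5 measured genes (Vegfa) passed in Ncx1-/- against Ncx1+/+ hearts, where 11.9% of all genes did.

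The pathway lists were read against all measured genes. Of these, 15.8% were past the fold higher and 6.64% lower in Ncx1-/- against Ncx1+/+ endothelial-like nuclei, 6.97% higher and 6.10% lower in cardiomyocyte-like nuclei, and 12.1% higher and 8.38% lower in mesenchyme-like nuclei. The part of the unequal mix of endothelial-like sub-clusters in the list values was not tested. Genes that are known to be induced by low oxygen, as Vegfa is, stood higher in mutant nuclei almost throughout. In endothelial-like nuclei 20 of 21 measured genes of that list were past the fold higher in Ncx1-/- than in Ncx1+/+ hearts (15.8% of all genes) and 0 lower, with a median log2 ratio of 2.03 against 0.10 for all genes. Adm, the vasodilator peptide adrenomedullin, had 16.8 CPM in Ncx1-/-, 2.31 CPM in Ncx1+/- and 0.967 CPM in Ncx1+/+ hearts (ratio 17.4, 9.05–37.6). Ankrd37 had 47.5 CPM in Ncx1-/-, 9.65 CPM in Ncx1+/- and 2.90 CPM in Ncx1+/+ hearts, and Bnip3, which acts in mitochondrial clearance, had 86.5 CPM in Ncx1-/-, 23.7 CPM in Ncx1+/- and 10.7 CPM in Ncx1+/+ hearts. In each of these genes the heterozygous library lay between the others, as Vegfa did.

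In cardiomyocyte-like nuclei 17 of 23 measured genes of the list were past the fold higher in Ncx1-/- and 0 lower, with a median log2 ratio of 0.90 against -0.03 for all genes. Ndrg1 had 15.5 CPM in Ncx1-/-, 3.71 CPM in Ncx1+/- and 1.71 CPM in Ncx1+/+ hearts, Egln3, an oxygen-sensing hydroxylase, had 16.9 CPM in Ncx1-/-, 6.23 CPM in Ncx1+/- and 3.45 CPM in Ncx1+/+ hearts, and Car9, a carbonic anhydrase, had 14.3 CPM in Ncx1-/-, 5.16 CPM in Ncx1+/- and 3.98 CPM in Ncx1+/+ hearts. In mesenchyme-like nuclei all 14 measured genes of the list were past the fold higher, with a median log2 ratio of 1.42 against 0.03 for all genes, among them Pdk1 and Hk2, enzymes of glucose use, at 180 and 521 CPM in Ncx1-/-, 51.7 and 148 CPM in Ncx1+/-, and 40.0 and 122 CPM in Ncx1+/+ hearts.

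Of genes known to be induced by VEGF signalling in endothelium, 3 of 15 measured in endothelial-like nuclei were past the fold higher in Ncx1-/- than in Ncx1+/+ hearts and 2 lower, with a median log2 ratio of 0.48 against 0.10 for all genes. The count higher is near the share of all genes, 15.8%, and is not a result about these genes. Adamts9, a secreted metalloprotease, had 135 CPM in Ncx1-/-, 86.2 CPM in Ncx1+/- and 73.0 CPM in Ncx1+/+ hearts (ratio 1.85, 1.67–2.05), and Fjx1 and Plaur were the others higher (2.10 and 1.59). Unc5b, a netrin receptor of endothelium, had 47.5 CPM in Ncx1-/-, 71.8 CPM in Ncx1+/- and 80.2 CPM in Ncx1+/+ hearts (ratio 0.592, 0.513–0.683), and Rcan1, a calcineurin inhibitor, had a ratio of 0.651. In cardiomyocyte-like nuclei 0 of 11 measured genes of this list passed the fold, and in mesenchyme-like nuclei 2 were higher and 2 lower of 6.

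Of 29 genes of receptor signalling, all measured in endothelial-like nuclei, 2 were past the fold higher in Ncx1-/- than in Ncx1+/+ hearts and 5 lower, with a median log2 ratio of -0.01, where 15.8% of all genes were higher and 6.64% lower. Those lower included both receptor phosphatases of the list, which are known to dampen Kdr signalling. Ptprb had 243 CPM in Ncx1-/-, 422 CPM in Ncx1+/- and 500 CPM in Ncx1+/+ hearts, and Ptprj had 15 CPM in Ncx1-/-, 54.0 CPM in Ncx1+/- and 76.1 CPM in Ncx1+/+ hearts (ratio 0.197, 0.154–0.248). Ptprb was a marker used to name the class, and Ptprj is among the leading genes of sub-cluster 4, which held 7 Ncx1-/-, 262 Ncx1+/- and 360 Ncx1+/+ nuclei. Mapk3, the ERK1 kinase, was higher, with 135 CPM in Ncx1-/-, 71.5 CPM in Ncx1+/- and 59.3 CPM in Ncx1+/+ hearts (ratio 2.27, 2.04–2.53), and Mapkapk2 was lower (0.6). In cardiomyocyte-like nuclei 2 of the 29 were higher and 2 lower, and in mesenchyme-like nuclei 4 higher and 3 lower of 27.

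Semaphorin ligands and plexins share the neuropilins with VEGF. In endothelial-like nuclei 2 of 7 measured partners were higher and 3 lower in Ncx1-/- against Ncx1+/+ hearts, with a median log2 ratio of 0.15, where 15.8% of all genes were higher and 6.64% lower. Sema3a, the repulsive ligand of Nrp1, had 234 CPM in Ncx1-/-, 652 CPM in Ncx1+/- and 550 CPM in Ncx1+/+ hearts (ratio 0.424, 0.399–0.451), whereas Sema3g and Sema3f had ratios of 1.89 and 1.77. The plexins Plxna4 and Plxna2, which signal for the neuropilins, had ratios of 0.461 and 0.605. In cardiomyocyte-like nuclei 1 of 11 was higher (Sema3e, 2.20) and 3 were lower, with a median of -0.34, where 6.97% of all genes were higher and 6.10% lower: Sema3a had 263 CPM in Ncx1-/-, 417 CPM in Ncx1+/- and 468 CPM in Ncx1+/+ hearts, Sema3c, an outflow tract guidance ligand, had 130 CPM in Ncx1-/-, 211 CPM in Ncx1+/- and 249 CPM in Ncx1+/+ hearts, and Sema3g had under 2 CPM in each library. In mesenchyme-like nuclei 0 of 4 were higher and 2 lower, Plxna4 (0.175) and Plxna2 (0.365).

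The lymphatic and Vegfc-processing genes, listed for Flt4 and Vegfc, split in endothelial-like nuclei into 2 higher and 3 lower of 6 in Ncx1-/- against Ncx1+/+ hearts, with a median log2 ratio of -0.39, where 15.8% of all genes were higher and 6.64% lower. Nr2f2, a venous transcription factor that also marks the atrium, had 258 CPM in Ncx1-/-, 114 CPM in Ncx1+/- and 99.1 CPM in Ncx1+/+ hearts (ratio 2.61, 2.40–2.83), and Sox18 had a ratio of 1.74. Prox1, the lymphatic regulator, had 37.4 CPM in Ncx1-/-, 68.0 CPM in Ncx1+/- and 62.9 CPM in Ncx1+/+ hearts (ratio 0.595, 0.505–0.698), and Adamts3, the protease that activates Vegfc, had a ratio of 0.421. Figf, an older symbol of the ligand gene Vegfd, is not among the 9 genes described. It was also lower, at 3.18 CPM in Ncx1-/-, 6.04 CPM in Ncx1+/- and 6.38 CPM in Ncx1+/+ hearts (ratio 0.499, 0.274–0.860). In cardiomyocyte-like nuclei 3 of 8 were lower and 0 higher: Itga9 (0.478), Adamts3 (0.590) and Ccbe1 (0.649), the cofactor of Adamts3. In mesenchyme-like nuclei 1 was higher and 1 lower of 4.

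Of 17 transcription factors known to act on the receptor genes, 5 were past the fold higher in Ncx1-/- than in Ncx1+/+ endothelial-like nuclei and 0 lower, where 15.8% of all genes were higher and 6.64% lower, with a median log2 ratio of 0.02. Sox17 had 134 CPM in Ncx1-/-, 41.0 CPM in Ncx1+/- and 33.2 CPM in Ncx1+/+ hearts (ratio 4.05, 3.56–4.62), and Sox7 had 182 CPM in Ncx1-/-, 81.8 CPM in Ncx1+/- and 67.6 CPM in Ncx1+/+ hearts. Etv2, an early regulator of the endothelial lineage, had 24.5 CPM in Ncx1-/-, 10.2 CPM in Ncx1+/- and 7.83 CPM in Ncx1+/+ hearts (ratio 3.13, 2.36–4.18). Etv2 is among the leading genes of sub-cluster 0, and Sox7 was a marker used to name the class. Sox17 and Etv2 are both on the vascular endothelial marker list, which averaged highest in sub-clusters 0, 7 and 8. These held 530, 311 and 294 Ncx1-/- nuclei but 23, 42 and 68 Ncx1+/+ nuclei, and the part of this mix in the ratios was not tested. In cardiomyocyte-like nuclei 1 of 11 was lower (Fli1, 0.512) and 0 higher, and in mesenchyme-like nuclei 4 of 9 were higher, Sox7 (3.10) among them, and 0 lower, where 12.1% of all genes were higher.

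Patterns over 8 nucleus groups (the 4 chambers and the endothelial-like, mesenchyme-like, epicardial-like and erythroid-like classes) and 3 genotypes were compared with those of 12041 genes by Pearson's r of log2(CPM + 10) over the 24 sums, which share libraries and depth. The gene most like Vegfa was Pnrc1 (r = 0.974), followed by Pkm, a glycolytic enzyme (0.961). Flt4 was most like the Notch ligand Dll4 (0.983) and the Notch modifier Mfng (0.981). Flt1 was most like Palm (0.966), Kdr most like Gas6 (0.945), Nrp1 most like Zfpm2 (0.977), Nrp2 most like Fam19a2 (0.886), Vegfb most like Car14 (0.912), Vegfc most like Fam114a1 (0.949) and Pgf most like Pcdhgc3 (0.869).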

How the data were processed

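The deposited values are whole-number counts of UMIs per gene and nucleus barcode, not normalised by the authors. Nuclei of homogenised frozen hearts were quality-sorted and sequenced with the 10x Genomics 3.1 kit, per the labels' protocols. The submitters' processing notes name Cell Ranger 6.1.0 and the build mm10, whereas the file headers name Cell Ranger 9.0.0. Whether intronic reads were counted, the counting strand and the annotation release are not given in the sources used here.

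Barcodes with at least 500 genes and at most 5% mitochondrial UMIs were used, and the 8% with the highest doublet scores of each library were removed, since the automatic threshold marked 0% in Ncx1-/-, 11.0% in Ncx1+/- and 10.3% in Ncx1+/+ nuclei. Clusters came from scanpy 1.11.5 (2000 variable genes, 30 principal components, 15 neighbours, Leiden resolution 1) without the 9 genes, and endothelial-like and mesenchyme-like nuclei were clustered again. A cluster took the name of a marker list whose markers averaged at least 0.35 of their highest cluster level, with at least 3 markers detected and every other list below 0.6. Sub-clusters of the second clustering took the list with the highest average, with no minimum. Sub-clusters 12 and 13 (159 and 74 nuclei) averaged highest for cardiomyocyte markers and were left out of both classes. Cluster 16 (494 nuclei) met this but stayed unnamed because its depth was very low and none of its 10 leading genes was on that marker list. Counts were summed per class and library and scaled to CPM. Levels have exact Poisson and ratios exact conditional binomial 95% intervals (scipy 1.17.1), and shares of nuclei exact binomial ones. With 1 library per genotype no test was possible. TMM factors came from edgeR 4.0.16, and the calculation was tested on simulated data. The minimum count for a class was 100 over the 3 libraries, and where a count was 0 the floor was 3 counts.

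Positions come from GENCODE M21 (mm10), in which 27722 of the 27998 gene identifiers (99.0%) were found. All 9 genes were always named. Of each pathway list, the 3 highest and 3 lowest ratios of Ncx1-/- to Ncx1+/+ past 1.5-fold were eligible to be named, or the 2 genes with most counts where none passed. The genes described and all lists were chosen with earlier results of these data known.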

Additional observations from a re-analysis of the deposited data

Results flagged for a closer look

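Nrp2 differed in direction between nucleus classes in Ncx1-/- against Ncx1+/+ hearts. Its CPM ratio was 1.66 in endothelial-like nuclei, 1.65 in mesenchyme-like nuclei and 1.83 in outflow tract nuclei, against 0.370 in all cardiomyocyte-like nuclei and 0.556 in ventricular nuclei. With equal weights for clusters the ratio was 1.46 in cardiomyocyte-like and 1.16 in endothelial-like nuclei, both above 1, and within mesenchyme sub-cluster 9 it was 0.730 (50.4 CPM in Ncx1-/- and 69.1 CPM in Ncx1+/+ nuclei). Of the 8 cardiomyocyte-like clusters so weighted, only that of the outflow tract had a ratio above 1. The difference between classes was not tested, since each genotype has 1 library.

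Flt1 was also counted in cluster 18, which no comparison used because it could not be named and whose leading genes include Lrp2, Col1a1 and Bnc2. Its level there was 250 CPM in Ncx1-/- nuclei, 66.5 CPM in Ncx1+/- nuclei and 158 CPM in Ncx1+/+ nuclei, from 198 Ncx1-/-, 39 Ncx1+/- and 72 Ncx1+/+ nuclei.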

How the results depend on the processing

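Of 208 recomputed member ratios, 149 moved by less than their counting interval, 58 moved by more, and 1 that was past the fold turned its direction. That one is Nrp2 in cardiomyocyte-like nuclei, with a log2 ratio of Ncx1-/- to Ncx1+/+ of 0.55 when the clusters had equal weights, against -1.44 as reported. Cardiomyocyte Kdr, not past the fold, also turned, with a log2 ratio of 0.26 with equal weights and 0.13 with nuclei gated singly by markers, against -0.14. Of 59 recomputed counts and class orders, 54 stayed the same within 1.5 times. With equal sub-cluster weights 2 genes (Vegfa and Flt4) passed the fold in Ncx1-/- endothelial-like nuclei instead of 4. In Ncx1+/- endothelial-like nuclei the count was 0 instead of 1 with TMM factors, with median-of-ratios size factors, with mesenchyme-like nuclei included and without endothelial sub-cluster 0; the last 2 settings were chosen after seeing the data. The log2 ratio of Vegfa between Ncx1-/- and Ncx1+/+ lay between 1.81 and 2.24 in endothelial-like and between 0.80 and 1.15 in cardiomyocyte-like nuclei over 13 alternatives each. That of endothelial Kdr lay between 0.02 and 0.46, with the lowest value at a finer clustering (Leiden resolution 2).

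No paired analysis was possible because each genotype has 1 library, and leaving out a replicate does not apply. Genotype, pool and library cannot be told apart, and embryo-to-embryo spread is unknown. Depth limits Pgf in all classes, Flt4 outside endothelial-like nuclei, and all 9 genes in erythroid-like nuclei.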
